A study of Homo sapiens with 8 samples.

Results

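The EGR, IER and NR4A immediate-early genes are 9 genes (EGR1, EGR2, EGR3, IER2, IER3, IER5, NR4A1, NR4A2 and SRF) chosen by name. They were found as probe sets for which the array platform's annotation gives that gene symbol alone. Of the 9 genes, 8 had such a probe set, with 15 probe sets in all among the 54613 of the table, and EGR2 is not analysed here. Each gene is described by its brightest probe set (the highest mean log2 level across all arrays), with its other probe sets beside it, called the second and the third in the order of that mean. All 19775 genes with a probe set of their own make up the whole table.

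HCT116 is a cell line established from a human colorectal carcinoma. It was treated for 10 h with largazole, SAHA, FK228 or vehicle, and RNA of each of the 4 groups was hybridised to 2 Affymetrix U133 2.0 arrays. The 3 compounds inhibit histone deacetylases. Largazole is a cyclic depsipeptide carrying a thioester and was used at 20 nM. The hydroxamic acid SAHA, also called vorinostat, was used at 2 µM, and FK228 (romidepsin), a depsipeptide with a disulfide, at 20 nM. The labels describe the experiment as done in duplicate without naming separate cultures, so p-values measure the spread between these samples, which may be technical.

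Immediate-early genes are transcribed within minutes of a growth factor or stress signal, without a need for new protein synthesis. Serum response factor, encoded by SRF, binds the CArG box of many of them together with ternary complex factors (ELK1, ELK3, ELK4) that are phosphorylated by ERK, or with the actin-regulated coactivators MRTFA and MRTFB. EGR1 and EGR3 encode zinc finger transcription factors that bind GC-rich sites and are restrained by the corepressors NAB1 and NAB2. NR4A1 and NR4A2 encode orphan nuclear receptors, and IER2, IER3 and IER5 small regulatory proteins named for their immediate-early induction. Histone deacetylase inhibitors raise histone acetylation.

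The promoters of EGR1, SRF, IER2 and IER5 are shown as examples with and without a CArG box, the motif that SRF binds. Whether a motif goes with a response was not tested. RefSeq promoter windows on build GRCh38.p14 were matched by symbol for EGR1, IER2, IER5, NR4A1 and SRF, 5 of the genes. No window was used for EGR3, IER3 and NR4A2. The 250 bases before each start site are printed 5′ to 3′, and capitals mark CArG boxes (runs of 10 bases) and cyclic AMP response element (CRE) half-sites (TGACG, or CGTCA where it lies on the other strand).
EGR1, chr5:138465229-138465478, plus strand: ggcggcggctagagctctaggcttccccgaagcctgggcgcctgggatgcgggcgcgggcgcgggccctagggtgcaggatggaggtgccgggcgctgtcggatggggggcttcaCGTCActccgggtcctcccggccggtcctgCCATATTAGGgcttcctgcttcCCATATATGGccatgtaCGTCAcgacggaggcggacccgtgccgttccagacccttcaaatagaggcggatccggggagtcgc
SRF, chr6:43171019-43171268, plus strand: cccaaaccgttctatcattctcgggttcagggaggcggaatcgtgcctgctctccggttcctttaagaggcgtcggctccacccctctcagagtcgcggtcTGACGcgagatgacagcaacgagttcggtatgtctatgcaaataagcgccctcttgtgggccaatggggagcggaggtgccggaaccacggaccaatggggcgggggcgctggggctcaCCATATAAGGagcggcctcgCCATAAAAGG
IER2, chr19:13150161-13150410, plus strand: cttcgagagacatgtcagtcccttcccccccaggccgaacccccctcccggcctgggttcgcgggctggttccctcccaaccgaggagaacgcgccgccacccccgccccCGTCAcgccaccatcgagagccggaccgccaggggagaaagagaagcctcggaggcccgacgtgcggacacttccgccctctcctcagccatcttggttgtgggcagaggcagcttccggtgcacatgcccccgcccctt
IER5, chr1:181088450-181088699, plus strand: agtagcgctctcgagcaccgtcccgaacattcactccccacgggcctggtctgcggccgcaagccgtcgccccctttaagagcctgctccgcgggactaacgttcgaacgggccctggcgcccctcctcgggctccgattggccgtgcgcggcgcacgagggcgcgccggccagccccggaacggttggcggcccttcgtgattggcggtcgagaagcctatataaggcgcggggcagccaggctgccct

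The EGR1 window held 2 CArG boxes, CCATATTAGG at bases -105 to -96 from the start site and CCATATATGG at -83 to -74. The window before the upstream SRF start site, printed here, held 2 as well, CCATATAAGG at -30 to -21 and CCATAAAAGG at -10 to -1, and that before its other start site held none. A CArG box on either strand was present in 1.16% of the 35116 RefSeq windows of this length, and a CRE half-site in 21.2%. EGR1 had 2 CRE half-sites, and SRF and IER2 had 1 each. The EGR site GCGNGGGCG, found in 8.41% of windows, matched once in EGR1 (at -198 to -190) and once in SRF (at -49 to -41), where it overlaps the GC box GGGCGG at -51 to -46. IER2 had 3 GC boxes, a motif present in 42.6% of windows. Neither NR4A1 start site nor the IER5 window held a CArG box, and no window of these genes held the full CRE TGACGTCA (1.65% of windows) or TATAAA (10.7%). A match is a description of these letters, not a bound site.

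Against vehicle, 5 of the 8 genes rose with largazole, 3 with SAHA and 5 with FK228, and none fell in any of the 3 comparisons (limma, Benjamini-Hochberg adjusted p under 0.05, and 0 lower at an unadjusted p under 0.05 as well). EGR1, EGR3 and IER2 rose with each compound. EGR3 was tested through its treated arrays alone, and the counts without it are given below. NR4A1 rose with largazole and FK228, IER3 with largazole and SRF with FK228, while IER5 and NR4A2 passed in none. Of all 13373 genes tested, 45.2% were called in either direction with largazole, 47.4% with SAHA and 52.8% with FK228. Of the same genes, 21.9% rose with largazole, 22.1% with SAHA and 25.7% with FK228. The genes' median log2 difference was 0.44 with largazole, 0.29 with SAHA and 0.68 with FK228, beside 0.0018, -0.019 and 0.013 over all tested genes. The 3 comparisons share their vehicle arrays, and in cultures a change of RNA per cell cannot be told apart from a change in the share of cells that express a gene.

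**Figure D1:**
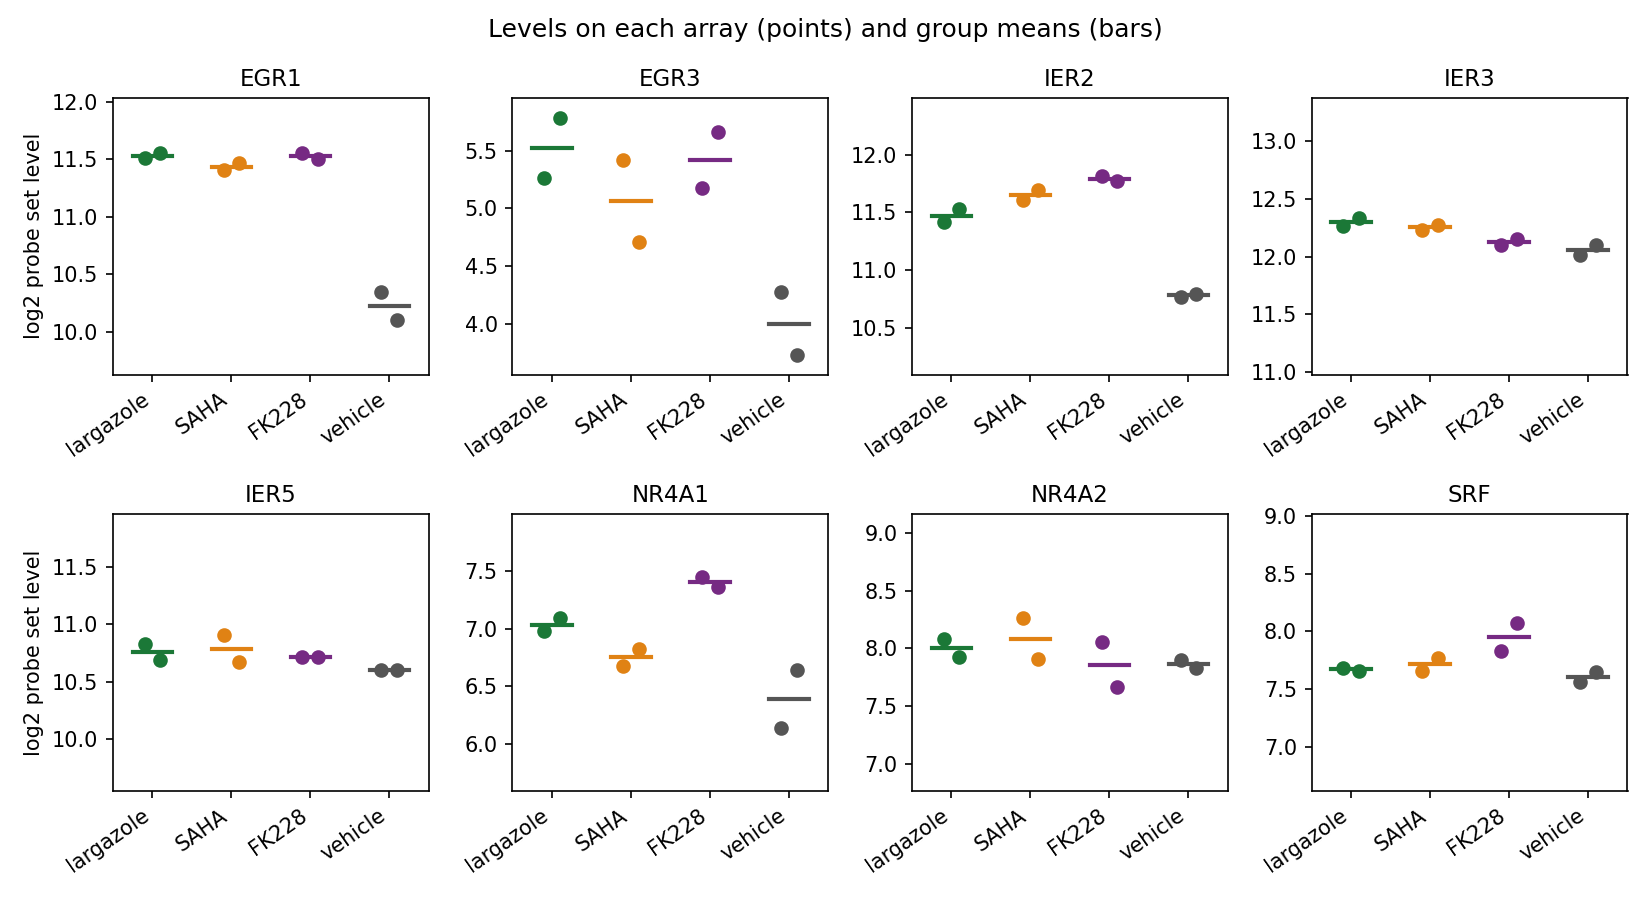
Log2 level of each gene's probe set with the highest mean (vertical axis, the same span in every panel) on each of the 2 arrays per group (points) with the group mean (bar), for largazole, SAHA, FK228 and vehicle. EGR1, EGR3, IER2, IER5, NR4A1 and SRF lay above both vehicle arrays on all 6 treated arrays, though narrowly on some arrays for IER5, NR4A1 and SRF. With 2 arrays per group this is a weak sign, and the share of all tested genes that do so was not determined. NR4A1 was highest with FK228, and IER5 and NR4A2 differed little between groups.

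All 8 genes passed the filter on low values, under which a probe set is tested when its second-highest value reaches 4.49, the median of all values. EGR3 did so through treated arrays alone, since both vehicle arrays lay below that value. The counts of risen genes without it are 4 with largazole, 2 with SAHA and 4 with FK228, of 7 genes. Of all tested genes 21.9%, 22.1% and 25.7% rose, so the SAHA count without EGR3 is near the share over all genes. Of the 8 epithelial markers, 8 averaged at or above 4.49 with largazole, 8 with SAHA, 7 with FK228 and 7 with vehicle. The brush border gene VIL1 was the dim one, at mean log2 levels of 4.58, 4.68, 4.49 and 4.49. The tight junction gene CLDN4 fell by 0.64 with largazole, 0.80 with SAHA and 1.66 with FK228, and the cadherin gene CDH1 rose by 0.74, 0.78 and 0.69. Over the 8 markers 2 rose and 1 fell with largazole, 3 rose and 1 fell with SAHA, and 2 rose and 2 fell with FK228. Of the 6 leukocyte markers measured, 1 averaged at or above 4.49 in each group, and of 8 fibroblast and endothelial markers 3 or 4. One of these, the collagen gene COL1A1, averaged 8.40 with largazole, 7.85 with SAHA, 7.73 with FK228 and 7.13 with vehicle. It was the only 1 called of the 4 tested with each compound, and the other 3, DCN, PECAM1 and VWF, were not called. COL1A2, COL3A1, LUM and CDH5 did not pass the filter. The part of these markers in the results was not tested.

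EGR1, the zinc finger factor whose promoter carries the 2 CArG boxes shown above, was at a log2 level of 11.51 and 11.55 with largazole, 11.41 and 11.46 with SAHA, 11.55 and 11.50 with FK228, and 10.35 and 10.11 with vehicle. All 6 treated arrays stood above both vehicle arrays. With 2 arrays a group such a separation is a weak sign, here and for the genes below. Its share over all tested genes was not determined. The log2 difference from vehicle was 1.30 ± 0.099 with largazole (SE, n = 2, adjusted p = 5.69e-05), 1.21 ± 0.099 with SAHA (adjusted p = 6.85e-05) and 1.30 ± 0.099 with FK228 (adjusted p = 3.04e-05), or 2.46-fold, 2.31-fold and 2.46-fold. The other 2 EGR1 probe sets also rose with each compound. The second differed from vehicle by 1.22 with largazole, 0.89 with SAHA and 1.52 with FK228. The third differed by 0.87 with largazole, 0.79 with SAHA and 1.62 with FK228. These 2 probe sets had their largest difference with FK228, which the probe set of highest mean did not show.

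EGR3, the related zinc finger factor, had a single probe set of low level, with log2 values of 5.27 and 5.79 under largazole, 5.42 and 4.71 under SAHA, 5.18 and 5.66 under FK228, and 4.27 and 3.73 under vehicle. The treated and vehicle arrays did not overlap, although the 2 arrays of a group lay 0.48 to 0.71 apart. Both vehicle arrays lay under the filter value of 4.49, so EGR3 was tested through its treated arrays alone. The log2 difference was 1.53 ± 0.30 with largazole (SE, n = 2, adjusted p = 0.0049), 1.07 ± 0.30 with SAHA (adjusted p = 0.0222) and 1.42 ± 0.30 with FK228 (adjusted p = 0.00533). With SAHA replicate 1 omitted the SAHA difference was 0.71 (adjusted p = 0.129), and with vehicle replicate 2 omitted it was 0.79 (adjusted p = 0.132), neither of them called.

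IER2, which encodes a nuclear immediate-early protein and whose window holds 3 GC boxes and no CArG box, had log2 levels of 11.41 and 11.53 with largazole, 11.61 and 11.69 with SAHA, 11.81 and 11.77 with FK228, and 10.77 and 10.79 with vehicle. The groups did not overlap. IER2 was higher by 0.69 ± 0.084 with largazole (SE, n = 2, adjusted p = 0.000474), 0.87 ± 0.084 with SAHA (adjusted p = 0.000139) and 1.01 ± 0.084 with FK228 (adjusted p = 4.54e-05), the last a 2.02-fold rise. Its call with each compound held with any 1 array left out.

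IER3, which encodes the stress-inducible survival protein IEX-1, was highly expressed in every group, at 12.27 and 12.34 with largazole, 12.23 and 12.28 with SAHA, 12.10 and 12.16 with FK228, and 12.02 and 12.10 with vehicle. The largazole and SAHA arrays lay above both vehicle arrays, and the FK228 and vehicle arrays overlapped. IER3 differed by 0.24 ± 0.082 with largazole (SE, n = 2, adjusted p = 0.0468), 0.20 ± 0.082 with SAHA (adjusted p = 0.0904) and 0.068 ± 0.082 with FK228 (adjusted p = 0.529). Leaving out any 1 of the 8 arrays ended the largazole call (adjusted p = 0.0591 to 0.213), as did testing without a filter (adjusted p = 0.138) or with the 4 largazole and vehicle arrays alone (adjusted p = 0.0727). With replicate number as a block, the difference with SAHA was called (adjusted p = 0.0464).

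IER5, which encodes a regulator of heat shock factor activity, was at 10.83 and 10.69 with largazole, 10.90 and 10.67 with SAHA, 10.71 and 10.71 with FK228, and 10.60 and 10.60 with vehicle. All 6 treated arrays lay above both vehicle arrays, yet IER5 was called with no compound. IER5 differed from vehicle by 0.16 with largazole (95% interval -0.079 to 0.39, adjusted p = 0.267), 0.18 with SAHA (-0.050 to 0.42, adjusted p = 0.183) and 0.11 with FK228 (-0.12 to 0.34, adjusted p = 0.41). These intervals include 0 and leave room for a rise of up to about 0.42 on the log2 scale.

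**Figure D2:**
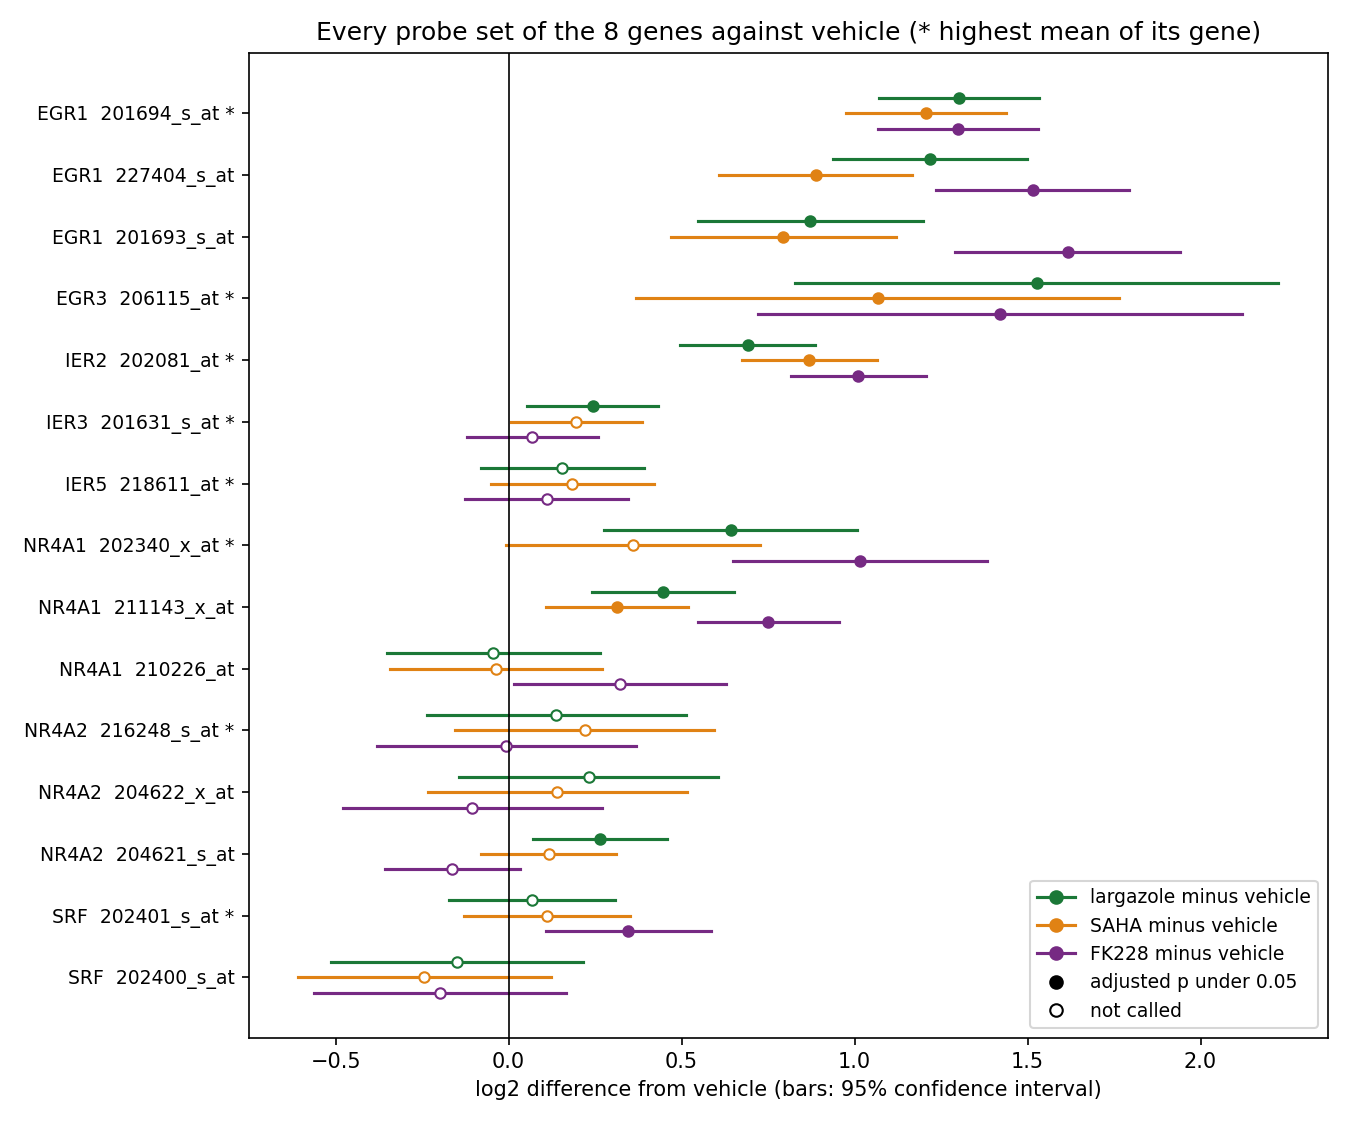
Log2 difference from vehicle (horizontal axis, points with 95% confidence intervals) for all 15 probe sets, with filled points where adjusted p was under 0.05. All 3 EGR1 probe sets, EGR3 and IER2 were called with each compound, and the NR4A1, NR4A2 and SRF probe sets of the same gene disagreed in size or call.

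NR4A1, the orphan receptor Nur77, had log2 levels of 6.98 and 7.09 with largazole, 6.68 and 6.82 with SAHA, 7.45 and 7.37 with FK228, and 6.14 and 6.65 with vehicle. The treated arrays all exceeded the vehicle arrays, and the vehicle arrays lay 0.51 apart, the widest gap of the 4 groups. Its log2 difference was 0.64 ± 0.16 with largazole (SE, n = 2, adjusted p = 0.0134), 0.36 ± 0.16 with SAHA (adjusted p = 0.104) and 1.02 ± 0.16 with FK228 (adjusted p = 0.00112). Leaving out largazole replicate 2 ended the largazole call (0.58, adjusted p = 0.0741), and the difference was 0.39 without vehicle replicate 1. The SAHA difference was 0.61 and called without vehicle replicate 2 (adjusted p = 0.0086).

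The other NR4A1 probe sets gave smaller differences. The second rose by 0.45 with largazole, 0.31 with SAHA and 0.75 with FK228 (adjusted p = 0.00493, 0.0219 and 0.000258). Each of SAHA replicate 2, vehicle replicate 1 and vehicle replicate 2 decided its SAHA call, with an adjusted p of 0.114, 0.0736 and 0.0884 in their absence. That call also ended without a filter (adjusted p = 0.0634) or with the 4 SAHA and vehicle arrays alone (adjusted p = 0.0565). The third was at -0.044 with largazole, -0.037 with SAHA and 0.32 with FK228, and passed in none (adjusted p = 0.826, 0.851 and 0.0793). The NR4A1 probe set of highest mean and the second are of the _x_at type, which can match related transcripts, and the third is not. The called differences of NR4A1 above thus all rest on probe sets of that type. With arrays scaled to equal ribosomal protein medians, the third was called with FK228 (0.38, adjusted p = 0.0467). With a further quantile normalization it was not (0.35, adjusted p = 0.0593). On all 3 probe sets the difference was largest with FK228. The mean of the 3 gave a difference of 0.35 with largazole.

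NR4A2, the related receptor Nurr1, was at 8.08 and 7.92 with largazole, 8.27 and 7.91 with SAHA, 8.06 and 7.66 with FK228, and 7.90 and 7.83 with vehicle. The 2 SAHA arrays lay 0.36 apart and the 2 FK228 arrays 0.39 apart, further than any group mean lay from vehicle. The log2 difference was 0.14 with largazole (95% interval -0.24 to 0.51, adjusted p = 0.546), 0.22 with SAHA (-0.15 to 0.59, adjusted p = 0.315) and -0.0065 with FK228 (-0.38 to 0.37, adjusted p = 0.979). The third of its probe sets rose with largazole by 0.26 (adjusted p = 0.0376), a call that ended when any 1 largazole, FK228 or vehicle array was left out (adjusted p = 0.0515 to 0.185), without a filter (adjusted p = 0.111) or with the 4 arrays of that comparison alone (adjusted p = 0.054). The second passed with no compound.

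SRF, the factor that binds CArG boxes and has 2 of them before the upstream one of its own start sites, was at 7.69 and 7.66 with largazole, 7.66 and 7.77 with SAHA, 7.83 and 8.07 with FK228, and 7.56 and 7.65 with vehicle. The FK228 arrays were the highest, and the largazole and SAHA arrays lay just above vehicle. The log2 difference was 0.068 ± 0.10 with largazole (SE, n = 2, adjusted p = 0.65), 0.11 ± 0.10 with SAHA (adjusted p = 0.432) and 0.35 ± 0.10 with FK228 (adjusted p = 0.0247). In the absence of FK228 replicate 2 the FK228 difference was 0.23 and no longer called (adjusted p = 0.141), and the same happened in the absence of vehicle replicate 1 (adjusted p = 0.117) and of vehicle replicate 2 (adjusted p = 0.0557). The second, dimmer SRF probe set was at -0.15 with largazole, -0.24 with SAHA and -0.20 with FK228 and passed in none, and the mean of both gave 0.074 with FK228 (adjusted p = 0.529). The call on the brighter probe set also ended without a filter (adjusted p = 0.0568) or with the 4 FK228 and vehicle arrays alone (adjusted p = 0.0567).

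Largazole and FK228 were given at the same dose and time, and this pair was the only one tested between compounds. None of the 8 genes was called (limma), with 3 at an unadjusted p under 0.05, all lower with largazole (IER2, NR4A1 and SRF). Of all tested genes, 9.06% were called at an adjusted p under 0.05, 4.88% higher and 4.19% lower with largazole. The share at an unadjusted p under 0.05 was not determined, so the 3 genes cannot be set against these shares. IER2 differed by -0.32 (95% interval -0.51 to -0.12, adjusted p = 0.059), without overlap between the 2 groups, and with replicate number as a block it was called (adjusted p = 0.0423). NR4A1 differed by -0.37 (-0.74 to -0.0074, adjusted p = 0.187), with like values on its other probe sets of -0.30 and -0.37. SRF differed by -0.28 (-0.52 to -0.039, adjusted p = 0.142). Its second, dimmer probe set had the other sign, at 0.050 (-0.32 to 0.41, adjusted p = 0.878).

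For EGR1 the comparison depended on the probe set. The one of highest mean differed by 0.0014 (95% interval -0.23 to 0.23, adjusted p = 0.995), the second by -0.30 (adjusted p = 0.172) and the third by -0.75 (adjusted p = 0.0223), and the mean of the 3 was -0.35 (adjusted p = 0.0174). On the last, the log2 level was 8.02 and 8.18 with largazole, against 8.86 and 8.83 with FK228. The third NR4A2 probe set ran the other way, at 7.85 and 7.93 with largazole, against 7.48 and 7.44 with FK228, a difference of 0.43 (adjusted p = 0.0255). Both calls ended without any 1 of the 4 arrays of these groups (adjusted p = 0.0768 to 0.145 for EGR1, 0.0778 to 0.138 for NR4A2). The NR4A2 call also ended without a filter (adjusted p = 0.0727) or with those 4 arrays alone (adjusted p = 0.0598). For EGR3 (0.11, 95% interval -0.59 to 0.80), IER3 (0.17, -0.016 to 0.36), IER5 (0.046, -0.19 to 0.28) and the main NR4A2 probe set (0.14, -0.23 to 0.52) the intervals include 0 and, for EGR3, span more than a log2 unit.

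**Figure D3:**
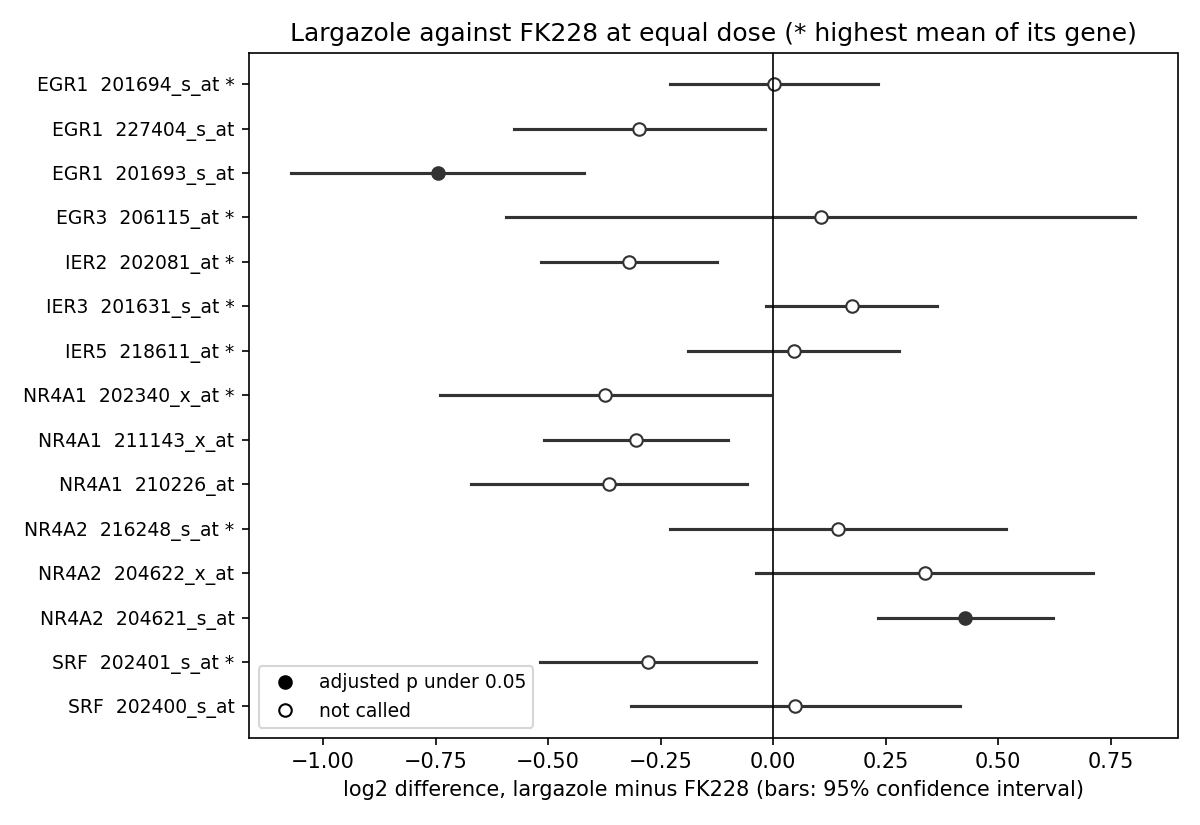
Log2 difference of largazole minus FK228 (horizontal axis, points with 95% confidence intervals) for all 15 probe sets, filled where adjusted p was under 0.05. The 3 EGR1 probe sets spread over 0.0014, -0.30 and -0.75, and the 3 NR4A1 probe sets lay between -0.37 and -0.30.

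SAHA was given at another dose, so its values stand beside the others without a test. Its mean log2 level lay between those of largazole and FK228 for IER2, IER3 and SRF, and below both for EGR1, EGR3 and NR4A1. For IER5 and NR4A2 it was the highest of the 3, by less than the gap between its 2 arrays.

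Among relatives of these genes, NR4A3, the third receptor of the NR4A family, rose with each compound, unlike NR4A2. It was at 6.05 and 6.05 with largazole, 6.13 and 6.24 with SAHA, 5.90 and 6.26 with FK228, and 4.69 and 4.54 with vehicle. The log2 difference was 1.43 ± 0.13 with largazole (SE, n = 2), 1.57 ± 0.13 with SAHA and 1.46 ± 0.13 with FK228 (adjusted p = 0.000106, 6.22e-05 and 5.37e-05). IER5L, a relative of IER5, fell, by 0.64 with largazole, 0.61 with SAHA and 0.98 with FK228. Omitting largazole replicate 1 or vehicle replicate 2 ended its largazole call (adjusted p = 0.0592 and 0.0544). Omitting SAHA replicate 1 or vehicle replicate 2 ended its SAHA call (adjusted p = 0.0633 and 0.0606). EGR4, near the filter value, passed with none (-0.068, 0.024 and 0.25).

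Of 11 genes for partners and corepressors, 9 were tested, all but MYOCD and RXRG, which did not pass the filter. More of the tested genes fell than rose. With largazole 1 rose and 5 fell, with SAHA 1 rose and 5 fell, and with FK228 1 rose and 6 fell, where 23.2%, 25.2% and 27% of all genes fell. The SRF coactivator MRTFA rose by 0.62 with largazole, 0.52 with SAHA and 0.77 with FK228, while its paralog MRTFB did not pass (0.090, 0.046 and -0.057). The mean of all MRTFA probe sets was 0.36 with largazole and 0.37 with FK228. The ternary complex factor ELK4 fell by 0.46 with largazole, 0.36 with SAHA and 0.42 with FK228, although the mean of all its probe sets was -0.038, -0.070 and -0.098 and passed in none. On probe sets of neither the _x_at nor the _s_at type, ELK4 was at -0.30 with both largazole and SAHA and passed with neither (adjusted p = 0.112 and 0.111). ELK3 fell with FK228 by 0.89 and was at -0.20 with largazole and -0.25 with SAHA, and ELK1 passed with none (-0.19, -0.13 and 0.18).

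The EGR corepressors NAB1 and NAB2 were called lower with each compound. NAB1 differed from vehicle by -0.32 with largazole, -0.44 with SAHA and -0.64 with FK228, and NAB2 by -0.52, -0.55 and -0.32. Omitting either largazole array or vehicle replicate 1 ended the NAB1 call with largazole (adjusted p = 0.0642 to 0.083), as did testing without a filter (adjusted p = 0.0509). Omitting either FK228 array or vehicle replicate 2 ended the NAB2 call with FK228 (adjusted p = 0.0601 to 0.131), as did testing without a filter (adjusted p = 0.0581). The mean of all NAB1 probe sets was -0.088 with SAHA (adjusted p = 0.338), and -0.38 with FK228, and that of all NAB2 probe sets -0.18 with FK228 (adjusted p = 0.0608). At equal ribosomal protein medians NAB2 was at -0.26 with FK228 (adjusted p = 0.06). RXRA and RXRB, retinoid receptors with which NR4A1 and NR4A2 can pair, fell with each compound, RXRA by 0.75, 0.88 and 0.93 and RXRB by 0.74, 0.67 and 0.64 with largazole, SAHA and FK228. The mean of all RXRB probe sets was -0.30, -0.26 and -0.31, and that of all RXRA probe sets -0.50 with largazole and -0.54 with SAHA.

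A further list of 31 immediate-early genes had 30 tested. With largazole 21 rose and 6 fell, with SAHA 21 rose and 6 fell, and with FK228 21 rose and 7 fell, and the list median was 0.68, 0.64 and 0.83. Of all tested genes 21.9%, 22.1% and 25.7% rose and 23.2%, 25.2% and 27% fell, so that the list's fallen genes were near the share over all genes. FOS, the AP-1 subunit, differed from vehicle by 2.56 with largazole, 2.68 with SAHA and 3.39 with FK228. The matricellular protein gene CCN2 was at 6.93 and 6.94 with largazole, 6.67 and 6.80 with SAHA, 7.53 and 7.67 with FK228, and 3.95 and 3.77 with vehicle. Its vehicle arrays lay under the filter value, so it passed through treated arrays alone. The size of its differences (3.08, 2.87 and 3.74) rests on a low vehicle level, which may lie near background. The lowest with largazole and SAHA were the AP-1 subunit FOSL1 (-1.73 with both) and NFKBIA, the inhibitor of NF-kappaB (-1.70 and -2.04). With FK228 the lowest were PHLDA1 (-3.28) and the pseudokinase gene TRIB1 (-2.31). The mean of all probe sets was -0.94 and -1.11 for NFKBIA with largazole and SAHA and -0.88 for TRIB1 with FK228.

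Over all tested genes the share risen was 21.9%, 22.1% and 25.7% with largazole, SAHA and FK228, and the share fallen 23.2%, 25.2% and 27%. Of 9 ERK feedback genes, 1 rose and 3 fell with largazole, 1 rose and 4 fell with SAHA, and 1 rose and 5 fell with FK228. SPRY2, an inhibitor of receptor tyrosine kinase signalling, was lowest with each (-0.88, -1.12 and -2.10). The ETS factor ETV5 was the 1 that rose (0.55, 0.63 and 0.67), the mean of all its probe sets was 0.33 with largazole and 0.38 with SAHA, and without probe sets named _x_at or _s_at it was at 0.22 with largazole (adjusted p = 0.119). Of 13 tested SRF cytoskeletal targets, 2 rose and 4 fell with largazole, 3 rose and 5 fell with SAHA, and 2 rose and 5 fell with FK228. The SAHA count was 2 risen and 3 fallen without SAHA replicate 2 or without vehicle replicate 2. The tropomyosin TPM1 (0.93, 1.00 and 0.80) and vinculin, VCL (0.73, 0.65 and 0.90), were highest, and the focal adhesion gene TGFB1I1 (-1.84, -2.01 and -1.94) lowest. The mean of all TPM1 probe sets was 0.54 with largazole, and that of all VCL probe sets was 0.56 with FK228. Without probe sets named _x_at or _s_at, TPM1 was at 0.45 with SAHA (adjusted p = 0.0722).

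**Figure D4:**
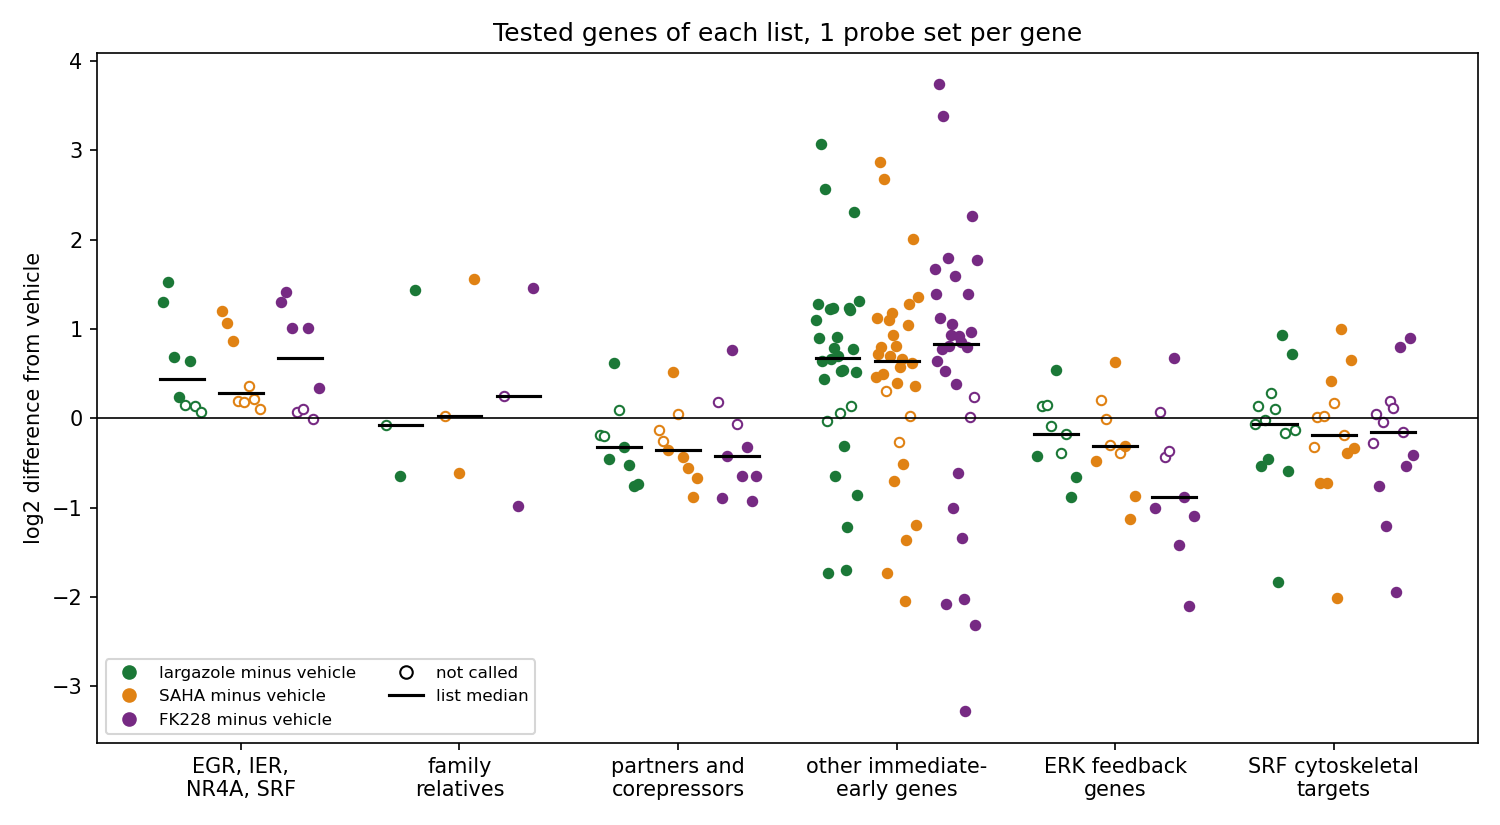
Log2 difference from vehicle (vertical axis) of every tested gene of the EGR, IER, NR4A and SRF genes and of 5 related lists, 1 point per gene and compound, filled where adjusted p was under 0.05, with list medians as black bars. The medians of the other immediate-early genes lay at 0.68, 0.64 and 0.83, and those of the ERK feedback genes at -0.17, -0.31 and -0.88.

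Likeness to other genes was measured as the root mean square difference, over the 8 arrays, between the log2 deviations of 2 genes from their vehicle means. Closest to EGR1 were SATB1 (0.080), TUBB2A (0.092) and TBPL1 (0.095). IER2 was closest to CDC6 (0.041), TIPARP (0.052) and IFT22 (0.052). The nearest to NR4A1, CHTF18, APC2 and TCP10L, lay further off (0.12 to 0.13), and those to EGR3, PAGE4, BMP6 and TEX19, further still (0.25 to 0.28). IER3 lay near ZC4H2, METTL23 and DEPP1 (0.030 to 0.035), and SRF near UBALD1, BCAP31 and FAM32A (0.026 to 0.047). Small distances are easy to reach for genes that hardly changed, so they give no order between the members.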

How the data were processed

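The authors deposited 1 log2 level per probe set and array, and the 8 array medians lay between 4.47 and 4.51. Per the submitters' processing notes the tools were affy, RMA and limma. Their versions, roles and order are not given in the sources used here. Of 54613 probe sets, 41091 had exactly 1 gene symbol, 1801 several and 11721 none, and 41037 matched RefSeq by gene ID.

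Probe sets whose second-highest value reached 4.49 (28985) entered a linear model in R 4.3.3 (limma 3.58.1) that estimated each group's mean over all 8 arrays (4 residual and 3.69 prior degrees of freedom) and Benjamini-Hochberg adjustment over the probe sets of each comparison. Precision is limited by the number of arrays, and the median half-width of a 95% interval was 0.26 on the log2 scale. With 2 arrays a group, an exact two-sided permutation test has 0.333 as its smallest p. Where intervals are given without a level, they are 95% intervals of the fit.

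Deviations of same-numbered arrays from their group means correlated at 0.128 to 0.268, positive in all 6 pairs of groups, which points to pairing by replicate number. The reported values come from the model without a block and so set this pairing aside. The value with replicate number as a block is given where it changes a call. The members, lists and tests were chosen with earlier results of these data known. Named genes are all members, all measured relatives and partners, and the 3 genes nearest to each called member. Of the other lists, up to 2 highest and 2 lowest called genes per compound are named. Cell type markers are named outside this rule. Alternatives were a stricter filter or none, another variance model, the replicate block, scaling to ribosomal protein genes, a further quantile normalization, other choices of probe set, fewer arrays and each array left out. Figures were drawn with Python 3.11.15 and matplotlib 3.10.9.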

Additional observations from a re-analysis of the deposited data

How the results depend on the processing

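The count of EGR, IER, NR4A and SRF genes called was 3 to 4 with largazole, 2 to 3 with SAHA and 4 to 5 with FK228 when 1 array was left out, and 0 in each case for largazole against FK228. The lowest largazole count, 3, came without largazole replicate 2. A lone array was then assumed to vary like the other groups. Without probe sets named _x_at or _s_at, 4 of the 8 genes could be tested, and 2 were called with largazole and 2 with FK228. With all probe sets in use, 45.2% and 52.8% of all tested genes were called with these compounds, so both counts are near the share called in either direction. The called genes, EGR3 and IER2, rose, where 21.9% and 25.7% of all tested genes rose. Of these, EGR3 passed the filter through treated arrays alone. NR4A1 then rested on another probe set, at -0.044 with largazole. For largazole against FK228, 1 gene was called under the stricter filter at 6.87, with replicate number as a block or at equal ribosomal protein medians, IER2 in each case, and 2 with an intensity trend and robust prior or with the mean of all probe sets. With that mean EGR1 was at -0.35 (adjusted p = 0.0174). The replicate block changed 1 further call of a member, that of IER3 with SAHA. Among all called genes of that pair, 53.8% were higher with largazole, and 41.4% at equal ribosomal protein medians. The causes were not tested. A further quantile normalization and an unfiltered fit moved no count of called members by over 1.5 times. Levels under 4.49, the median of all values, may lie near background, which was not measured, and this limits EGR3.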

Other observations

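At the equal dose of largazole and FK228, the other immediate-early genes held calls in both directions. Of 30 tested, 6 were higher and 8 lower with largazole, where 4.88% and 4.19% of all genes were. PHLDA1 was higher with largazole by 2.07 ± 0.096 (SE, n = 2, adjusted p = 0.000356) and TRIB1 by 1.46, while FOS fell by 0.82 and CCN2 fell by 0.66 relative to FK228. The CCN2 call ended without largazole replicate 1, largazole replicate 2 or FK228 replicate 2 (adjusted p = 0.0576 to 0.0904), and the mean of all TRIB1 probe sets was 0.40. The count of 14 called genes was 4 without largazole replicate 1, 5 without largazole replicate 2, 7 without FK228 replicate 1 and 5 without FK228 replicate 2. SPRY2, of the ERK feedback genes, was at 5.83 and 5.84 with largazole, against 4.62 and 4.60 with FK228, a difference of 1.22 (adjusted p = 0.00113). These genes were chosen for this paragraph after their values were seen.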
